A study of Mus musculus with 16 samples.

Results

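Trpm6, Pcsk1, 2600014E21Rik and Pde7b are 4 genes that were lower in HP1γ KO than in WT memory CD4+ T cells, among 56748 genes listed. They were selected on that difference, so that their levels, fitted changes, calls and adjusted p in HP1γ KO against its WT littermates describe the choice and how far it depends on the fit, and support nothing. The HP1α line shares none of the 8 samples of that comparison, but earlier results of the whole series were known when the genes were chosen, so that its tests are not free of the choice either. Splenic memory cells, gated by the sort as CD4+CD25low/-CD62L-CD44high, came from 4 groups of 4 samples. The HP1α line gave Hp1a -/- mice (HP1α KO) and their Hp1a +/+ littermates (HP1α WT). Its deleted allele came from a cross of floxed mice with CMV-cre mice, with Cre active in every tissue. Heterozygous carriers of that allele were then intercrossed. The HP1γ line gave mice homozygous for the floxed Hp1g allele with Cd4-cre (HP1γ KO), active in T cells, or without it (HP1γ WT). All mice were young adult, sex-matched littermates of mixed 129/Sv and C57BL/6 background. The study states that its sequencing work used males. All KO and no WT samples of the HP1γ line carried Cd4-cre, so that an effect of Cre cannot be told apart from one of the deletion.

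HP1 proteins bind histone H3 methylated on lysine 9, the mark of heterochromatin, and are best known for their part in gene silencing, and HP1γ is also found within transcribed genes. TRPM6 is an ion channel fused to a kinase domain that carries magnesium into epithelial cells of kidney and gut. PCSK1, or prohormone convertase 1/3, cuts prohormones such as proopiomelanocortin and proenkephalin in the regulated secretory pathway of endocrine and neural cells. PDE7B hydrolyses cyclic AMP (cAMP), the second messenger that restrains T cell activation. 2600014E21Rik is annotated as a long non-coding RNA.

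The 4 genes lie on 4 chromosomes of GRCm39 (GENCODE annotation). Trpm6 (ENSMUSG00000024727) is at chr19:18727089-18869875 on the plus strand and Pcsk1 (ENSMUSG00000021587) at chr13:75237284-75284898 on the plus strand. 2600014E21Rik (ENSMUSG00000100303) is at chr2:74969187-75148164 on the plus strand and Pde7b (ENSMUSG00000019990) at chr10:20273567-20600886 on the minus strand. No transcript of another gene shared 150 nt at 98% identity with the longest transcript of any of them. Of the annotated genes that overlap them, only the processed pseudogene Rps6-ps4, within 2600014E21Rik, was tested in the HP1γ line.

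The promoter of Pcsk1, the gene with the widest difference of the 4, is shown because it holds the palindrome TGACGTCA, known as the full cAMP response element, in capitals below. The window runs from 250 bases before to 50 bases after the start of the canonical transcript, 5′ to 3′ on the strand of the gene, read from GRCm39 at chr13:75237695-75237994.
Pcsk1: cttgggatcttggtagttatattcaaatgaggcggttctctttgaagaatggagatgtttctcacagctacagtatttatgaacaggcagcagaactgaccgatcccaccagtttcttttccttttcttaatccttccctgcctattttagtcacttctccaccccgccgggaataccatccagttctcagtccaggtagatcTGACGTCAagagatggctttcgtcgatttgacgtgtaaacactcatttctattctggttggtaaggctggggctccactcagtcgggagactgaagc
With the first base of the transcript as position 0, the element began at -47. It was present in 918 of the 54641 promoters of protein-coding and lncRNA genes (1.68%). The promoter of 2600014E21Rik held TATAAA on the other strand from position -5, as 13.7% of promoters held it on either strand, and that of Trpm6 held none of the 7 motifs searched (TATAAA of the TATA box, CCAAT of the CCAAT box, GGGCGG of the GC box, CACGTG of the E-box, TGACGTCA of the cAMP response element, TGANTCA of AP-1 sites and TGTGGT of Runx sites, on both strands, none overlapping another in these windows). CG dinucleotides numbered 10 in Trpm6, 9 in Pcsk1 and 5 in 2600014E21Rik, and the median over all promoters was 5. A match is a description of the letters and not a bound site.

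Estimated counts summed to between 26694045 and 40199637 per sample. Cbx3, which encodes HP1γ, was lower in every HP1γ KO sample than in every HP1γ WT sample (47.5 ± 1.97 and 84.5 ± 8.66 CPM, reads of the gene relative to all reads after TMM normalization, SD, n = 4 each), and Cbx5, which encodes HP1α, was lower in every HP1α KO sample than in every HP1α WT sample (27.1 ± 2.77 and 40.3 ± 9.28 CPM). In the HP1γ line Cbx5 had 31.3 ± 4.97 CPM in WT and 25.3 ± 4.72 CPM in KO, ranges that overlapped each other and that of HP1α KO. These values count RNA and not protein. In naive CD4+ T cells, the study reports that HP1α was wholly lost in HP1α KO and HP1γ almost wholly in HP1γ KO. It saw no overexpression of the other isoforms there. Cd4 reached 556 to 836 TPM, which sets the reads of a gene against its length, and Cd44 132 to 198 TPM over the 16 samples, as labelled for memory CD4+ T cells. Haemoglobin and glycophorin transcripts, the erythroid markers, summed to between 275 and 4199 TPM in HP1γ KO, 142 and 1818 TPM in HP1γ WT, 119 and 622 TPM in HP1α KO and 56.1 and 1704 TPM in HP1α WT. Among 16 marker lists, the summed TPM did not overlap between KO and WT for the naive T cell, plasma cell and platelet lists in the HP1γ line and the B cell list in the HP1α line, each higher in KO (exact permutation test, two-sided, p = 0.0286 and adjusted p = 0.229 over the 32 list tests for each of the 4). No list passed the adjustment. The lists without overlap depended on the unit: on summed CPM they were the B cell list in the HP1γ line and the naive T cell and Th1 lists in the HP1α line, each higher in KO, and the naive T cell list in the HP1γ line had a log2 ratio of -0.0020 in place of 0.07. On TPM, ranges in KO and WT were 1338 to 1392 and 1249 to 1329 TPM for the naive T cell list, 163 to 187 and 118 to 159 TPM for the plasma cell list, most of it Irf4, which T cells express too, 4.74 to 9.16 and 3.20 to 4.44 TPM for the platelet list, and 49.2 to 60.4 and 40.6 to 42.2 TPM for the B cell list, most of it Cd22. A sum can hide single genes. In HP1γ KO against WT, Il4 of the Th2 list had a log2 fold change of -0.85 (adjusted p = 0.251 by edgeR). Of the other tested genes of that list, Gata3 had -0.08, Il13 0.06 and Il1rl1 0.97. Zbtb16 of the NK/NKT list had -0.55 (adjusted p = 0.227 by edgeR), Klrd1 -0.28 and Klrb1c -0.01. Changes in the HP1α line were -0.28 for Il4 and -0.24 for Zbtb16. The part of the listed cell types in the results below was not tested. In bulk samples, fewer cells that express a gene and less RNA of it per cell cannot be told apart.

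A gene was called when its adjusted p in edgeR's quasi-likelihood test was under 0.05 and its absolute log2 fold change above 1. In HP1γ KO against HP1γ WT, 35 of 14975 genes were called (0.234%), of which 6 were lower (0.0401%). Trpm6, Pcsk1 and 2600014E21Rik were among these 6, and Pde7b passed the filter on low counts but was not called. Without HP1γ KO replicate 1, 2 genes were called lower and none of the 4 genes was among them, their adjusted p by edgeR then being 0.0541 or more. The other genes called lower were Il17rb, a receptor chain for IL-25, Pxdc1, and the ribosomal protein pseudogene Rpl35a-ps3. Rpl35a-ps3 had a mean of 7.20 CPM in HP1γ WT and 0 in HP1γ KO. In HP1α WT and HP1α KO it had 2.14 and 4.01 CPM. Whether its reads come from another gene was not tested. Among the lower genes, 2600014E21Rik (adjusted p = 0.0313 by edgeR) and Il17rb (0.0390) were the last inside the threshold on adjusted p, and Tgm3 (0.0889, log2 fold change -2.45) and Art2a (0.0946, log2 fold change -1.18) the first outside it. On fold change, Il17rb (-1.08) and Pxdc1 (-1.07) lay just inside and Marchf6 (-0.89) and the unnamed gene ENSMUSG00000095742 (-0.87) just outside.

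Trpm6 had the highest level of the 4 genes per unit of transcript length, 3.77 ± 0.350 TPM (SD, n = 4) in HP1γ WT. The 4 HP1γ WT samples held 15.2, 17.2, 11.9 and 17.0 CPM of it, and the 4 HP1γ KO samples 6.63, 5.85, 8.23 and 7.88 CPM. The HP1α WT samples had 17.2, 13.7, 11.6 and 11.9 CPM and the HP1α KO samples 10.3, 9.54, 8.62 and 8.11 CPM. The WT groups spanned nearly the same range, and KO lay wholly below its own WT littermates in each line. The HP1α KO samples were intermediate, and their lowest was below the highest of HP1γ KO. Counts behind these values ran from 172 to 674 per sample.

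Pcsk1 was a low-abundance transcript, at 0.441 ± 0.183 TPM (SD, n = 4) in HP1γ WT. It had 71, 35, 33 and 51 counts in the HP1γ WT samples, or 2.30, 0.892, 1.00 and 1.55 CPM. The HP1γ KO samples had 4, 5, 3 and 9 counts, or 0.152, 0.170, 0.0979 and 0.231 CPM. The ratio of the mean CPM of WT to that of KO was 8.83, the widest of the 4 genes, although it rests on few counts. HP1α WT had 1.31, 1.31, 0.697 and 0.537 CPM (42, 52, 19 and 17 counts), and HP1α KO 0.250, 0.572, 0.324 and 0.309 CPM (10, 18, 11 and 12 counts). HP1α KO replicate 2 lay above HP1α WT replicate 4 and below the other HP1α WT samples, and every HP1α KO sample lay above every HP1γ KO sample.

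The lncRNA 2600014E21Rik, at 0.837 ± 0.310 TPM (SD, n = 4) in HP1γ WT, behaved much like Pcsk1. It had 1.10, 1.71, 0.607 and 0.729 CPM in HP1γ WT (20 to 67 counts) and 0.152, 0.102, 0.229 and 0.103 CPM in HP1γ KO (3 to 7 counts). HP1α WT had 0.656, 1.01, 0.551 and 0.758 CPM, and HP1α KO 0.375, 0.223, 0.118 and 0.386 CPM (4 to 15 counts). KO lay wholly below WT in each line, and the ranges of HP1α KO and HP1γ KO overlapped, as did those of the WT groups.

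Pde7b, at 0.491 ± 0.122 TPM (SD, n = 4) in HP1γ WT, had another pattern over the groups. It had 0.648, 1.17, 0.729 and 0.395 CPM in HP1γ WT (13 to 46 counts) and 0.379, 0.442, 0.163 and 0.257 CPM in HP1γ KO (5 to 13 counts), so that these groups overlapped. Levels in the HP1α line were at the edge of detection, with 0.187, 0.101, 0.551 and 0.0631 CPM in WT (2 to 15 counts) and 0.150, 0.0318, 0.0588 and 0.154 CPM in KO (1 to 6 counts). A count of 3, the floor used here, corresponded to between 0.0746 and 0.112 CPM before TMM scaling. HP1γ WT was the group with the highest mean, and the means of HP1γ KO and HP1α WT were within one another's range.

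**Figure D1:**
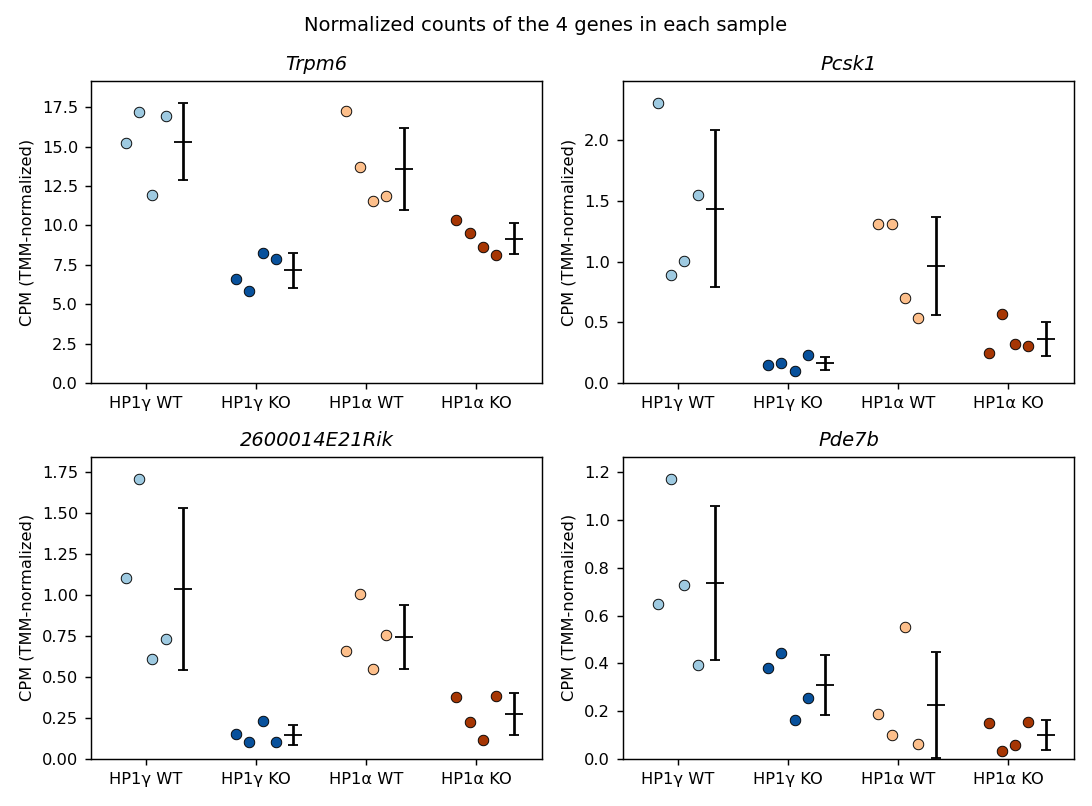
Normalized counts (CPM, vertical axis from 0) of the 4 genes in each of the 16 samples, 1 point per sample, with the mean and SD of the group to the right of the points. For Trpm6, Pcsk1 and 2600014E21Rik the order of the means is HP1γ WT, HP1α WT, HP1α KO and HP1γ KO from highest to lowest, whereas Pde7b has its highest mean in HP1γ WT, and its HP1γ KO and HP1α KO samples both overlap HP1α WT.

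In mean CPM, Trpm6, Pcsk1 and 2600014E21Rik were thus ordered HP1γ WT, HP1α WT, HP1α KO and HP1γ KO. The WT groups overlapped for each of these genes, with means of 15.3 ± 2.42 and 13.6 ± 2.61 CPM for Trpm6, 1.44 ± 0.644 and 0.964 ± 0.406 CPM for Pcsk1 and 1.04 ± 0.494 and 0.743 ± 0.196 CPM for 2600014E21Rik in HP1γ WT and HP1α WT (SD, n = 4 each). The KO groups overlapped for Trpm6 (9.15 ± 0.984 CPM in HP1α KO and 7.15 ± 1.10 in HP1γ KO) and for 2600014E21Rik (0.275 ± 0.129 and 0.146 ± 0.0596), and did not for Pcsk1 (0.364 ± 0.143 and 0.163 ± 0.0548). The differences between the lines were not tested. Fitted log2 fold changes in HP1γ KO against WT were -1.09 (standard error 0.147) for Trpm6, -3.07 (0.416) for Pcsk1, -2.81 (0.445) for 2600014E21Rik and -1.25 (0.420) for Pde7b. These values chose the genes. Over the genes tested in that line, 3.90% had every KO sample below every WT sample, as 3 of the 4 genes did.

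In HP1α KO against HP1α WT, Trpm6, Pcsk1 and 2600014E21Rik were lower as well, but none passed the adjustment over all genes. Pde7b did not pass the filter on low counts in this line. The log2 fold change was -0.57 for Trpm6 (standard error 0.141, 95% interval -0.89 to -0.26), a ratio of mean CPM, WT to KO, of 1.49. It was -1.42 for Pcsk1 (standard error 0.396, 95% interval -2.30 to -0.54), a ratio of 2.65. It was -1.41 for 2600014E21Rik (standard error 0.387, 95% interval -2.27 to -0.55), a ratio of 2.70. The intervals of the 3 genes excluded 0, each before any adjustment. Unadjusted p by edgeR's quasi-likelihood test was 0.00220 for Trpm6, 0.00477 for Pcsk1 and 0.00433 for 2600014E21Rik, and the adjusted p over 14881 genes was 0.946 for each. An unadjusted p under 0.05 with a lower level in KO was found for 386 genes in this line (2.59%), and the 3 members tested were all among them. For Pcsk1 and 2600014E21Rik, every HP1α WT sample (17 to 52 and 15 to 40 counts) was above the minimum count of 10. HP1α KO had 10 to 18 and 4 to 15 counts. For these 2 genes the filter could thus be met through WT alone, and passing it was not free of the difference. The share is set beside the members as a description only.

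Ranges of HP1α KO and WT did not overlap for Trpm6 and 2600014E21Rik (exact permutation test on CPM, two-sided, p = 0.0286 for either, the smallest that 4 samples against 4 allow), which was so for 1.43% of the genes tested with KO below WT. They overlapped for Pcsk1 (p = 0.0571 in the same exact test) and Pde7b (exact p = 0.371). For Pde7b, a fit without the filter gave a log2 fold change of -1.09 with a 95% interval from -2.68 to 0.50, so that at these counts neither a fall of the size seen in HP1γ KO nor the lack of one can be told. By edgeR, 0 of 14881 genes were called lower in HP1α KO (0%) and 0 higher, while 635 had an unadjusted p under 0.05; DESeq2 called 1 lower and 1 higher, and limma 2 lower and 2 higher on log2(TPM + 1) and 4 lower and 2 higher on log2(TPM + 0.1). Of the other genes called lower in HP1γ KO, Il17rb had a log2 fold change of -0.33 (unadjusted p = 0.0614 by edgeR), Pxdc1 of 0.03 (unadjusted p = 0.873 by edgeR) and Rpl35a-ps3 of 0.90 (unadjusted p = 0.401 by edgeR) in HP1α KO.

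**Figure D2:**
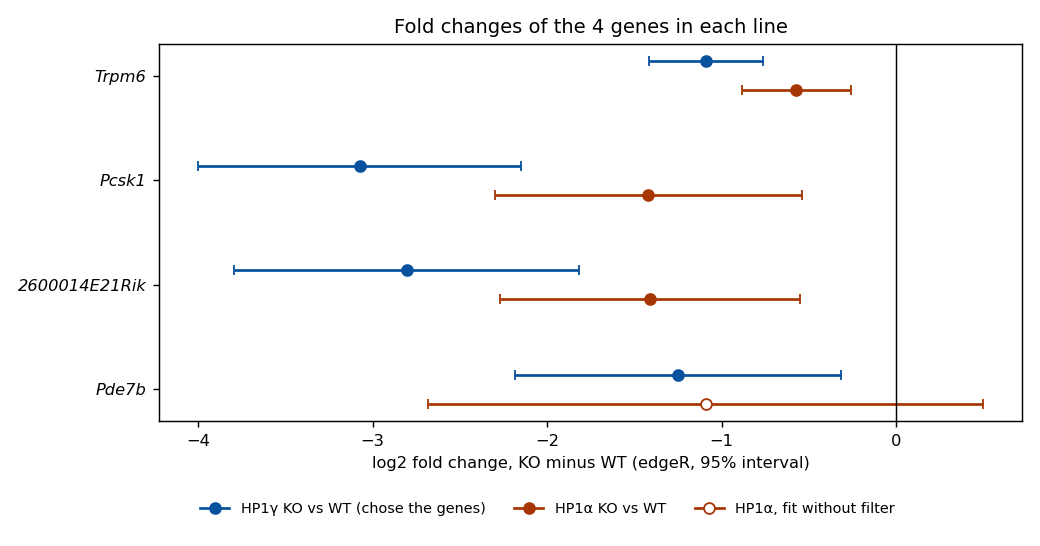
Log2 fold change, KO minus WT, with its 95% interval, in the HP1γ line (blue) and the HP1α line (brown); the open point is the fit without a filter on low counts. Trpm6, Pcsk1 and 2600014E21Rik lie at -0.57, -1.42 and -1.41 in the HP1α line with intervals below 0, and the interval of Pde7b there spans 0.

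The deposited TPM gave another result for Pcsk1 in the HP1α line. TPM were 0.413, 0.422, 0.207 and 0.167 in HP1α WT and 0.212, 0.620, 0.809 and 0.175 in HP1α KO, and did not differ beyond their spread (exact permutation test, two-sided, p = 0.400). On this scale the sign of the change turned, to 0.14 on log2(TPM + 1) by limma (adjusted p = 0.981). The ratio of CPM to TPM in a library gives the effective length of the transcripts to which the authors' quantification assigned the reads of a gene, relative to the mean of the library. For Pcsk1 this relative length was 3.05 to 3.33 in all 12 samples of HP1γ WT, HP1γ KO and HP1α WT, and 1.19, 0.945, 0.396 and 1.81 in the HP1α KO samples. Fewer reads thus stood beside an assignment of part of them to shorter transcripts in each HP1α KO sample.

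The difference in relative length of Pcsk1 (1.09 ± 0.587 in HP1α KO and 3.24 ± 0.0694 in HP1α WT, SD, n = 4 each; exact permutation test, two-sided, p = 0.0286) was singled out after its values were seen. Groups without overlap in this measure were found for 2.00% of 14649 genes in the HP1α line, and by the size of the log2 ratio of the means (-1.57) Pcsk1 ranked 1 among them. It rests on 10 to 18 counts per sample. The annotation holds 14 transcripts of Pcsk1, from 466 to 6974 nt, and the deposited tables do not say which of them held the reads.

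Pde7b had a difference of this kind in the HP1γ line, which is described without a test. Its relative length was 1.45, 1.71, 1.59 and 0.965 in HP1γ WT and 2.34, 2.49, 2.49 and 2.51 in HP1γ KO, so that shorter transcripts held part of the reads in WT. Non-overlap in either direction was common in that line, at 28.1% of 14688 genes, but by the size of the log2 ratio of the means (0.78) Pde7b ranked 33. Per unit of length the groups of Pde7b did not overlap, with 0.426, 0.670, 0.467 and 0.403 TPM in HP1γ WT and 0.160, 0.179, 0.0642 and 0.104 TPM in HP1γ KO, while their CPM did. The share of all genes without overlap in TPM was not counted, so that nothing is drawn from it. For Trpm6 the relative length was 2.91 to 4.29 over the 16 samples and for 2600014E21Rik, with 56 annotated transcripts, 0.695 to 1.97, and KO and WT overlapped in each line.

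**Figure D3:**
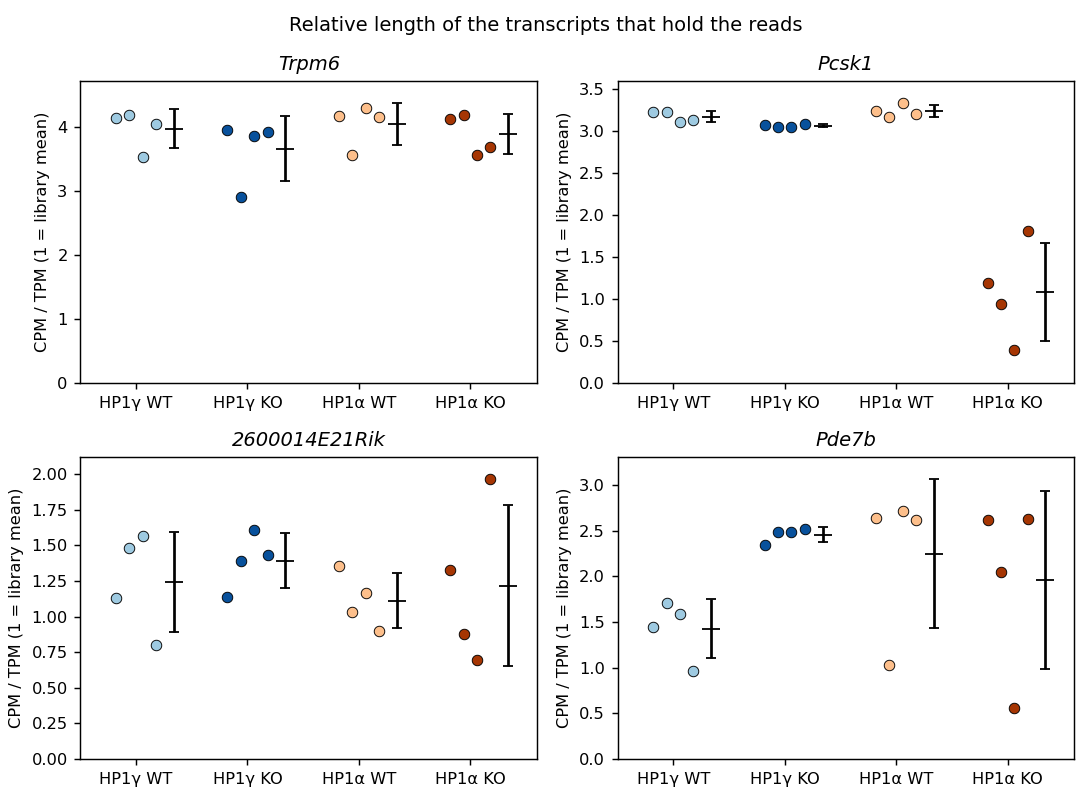
Relative length of the transcripts holding the reads (ratio of CPM before TMM scaling to TPM, 1 being the mean of the library) in each sample, with mean and SD beside the points. Pcsk1 stays between 3.05 and 3.33 in 12 samples and falls to 0.396 to 1.81 in HP1α KO, and Pde7b is lower in HP1γ WT than in HP1γ KO.

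None of the other genes of magnesium transport passed the adjustment over all genes. Of 24 listed genes (the other TRPM channels and the magnesium carriers Magt1, Mrs2, Slc41a1 to Slc41a3 and the Cnnm and Nipa families among them), 19 were tested in the HP1γ line, and 0 had an adjusted p under 0.05 by edgeR, with 1 lower and 1 higher at an unadjusted p under 0.05, which 11.9% of all genes tested in that line reached in either direction. Their median log2 fold change was 0.07, beside 0.00050 over all genes. Trpm7, the closest relative of Trpm6 and likewise a channel-kinase, was far more abundant, with 38.8 ± 3.16 TPM in HP1γ WT and 46.0 ± 4.42 TPM in HP1γ KO (log2 fold change 0.16, adjusted p = 0.509 by edgeR). Slc41a1, a magnesium exporter, had 0.38 (unadjusted p = 0.00740 by edgeR), and Tusc3, a relative of Magt1, -0.29 (unadjusted p = 0.00568 by edgeR). In the HP1α line 0 of 18 had an adjusted p under 0.05 by edgeR, 1 was lower and 0 higher at an unadjusted p under 0.05, beside 4.27% of all genes in either direction, and the median was 0.04.

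The list of convertases and prohormones was chosen with earlier results of these data known, so that a call in it is a description. In this list 1 gene was called in the HP1γ line, beside 0.234% of all genes tested there, and it rose. Penk, which encodes proenkephalin, a substrate of PCSK1 in neuroendocrine cells, had 23.7, 18.8, 13.2 and 17.6 CPM in HP1γ WT and 50.4, 59.6, 31.3 and 40.1 CPM in HP1γ KO, or 1.32 ± 0.212 on the log2 scale (fitted change ± standard error; adjusted p = 0.0316 by edgeR). Every HP1γ KO sample was above every HP1γ WT sample, a pattern whose share over all genes was not counted. In the HP1α line Penk had 13.1 ± 3.27 CPM in WT and 13.6 ± 3.64 CPM in KO (SD, n = 4 each; log2 fold change 0.06, adjusted p = 0.987 by edgeR). Of 23 listed genes 13 were tested in the HP1γ line, with a median log2 fold change of 0.07. Furin, the ubiquitous convertase, had 181 ± 14.2 TPM in HP1γ WT and 184 ± 32.5 TPM in HP1γ KO (log2 fold change -0.0018), and Pcsk7, another ubiquitous convertase, 40.0 ± 6.41 and 44.1 ± 2.40 TPM. Pcsk4, known from germ cells, had a log2 fold change of -0.90 (unadjusted p = 0.0188, adjusted p = 0.354 by edgeR). In the HP1α line 0 of 11 reached an unadjusted p under 0.05 by edgeR, beside 4.27% of all genes, and the median was 0.05.

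The cAMP pathway list held 38 genes, other phosphodiesterases, adenylyl cyclases, protein kinase A subunits, effectors and receptors, of which 28 were tested in each line. In HP1γ KO 0 of them had an adjusted p under 0.05 by edgeR. At an unadjusted p under 0.05, 1 was lower and 3 higher, beside 11.9% of all genes in either direction. The median log2 fold change was 0.08. Pde7a, the paralogue of Pde7b, dominated the pair with 120 ± 5.00 TPM in HP1γ WT and 121 ± 12.6 TPM in HP1γ KO (log2 fold change 0.01, 95% interval -0.16 to 0.18). Adcy1, an adenylyl cyclase, had 0.583, 0.586, 0.456 and 1.00 CPM in HP1γ WT and 1.52, 1.16, 1.57 and 1.80 CPM in HP1γ KO (log2 fold change 1.21, adjusted p = 0.177 by edgeR). Ptger4, a prostaglandin E2 receptor that raises cAMP, had -0.29 (unadjusted p = 0.00671 by edgeR). In HP1α KO, 0 had an adjusted p under 0.05 by edgeR. At an unadjusted p under 0.05, 0 were lower and 1 higher, beside 4.27% of all genes in either direction. The median there was -0.0080.

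**Figure D4:**
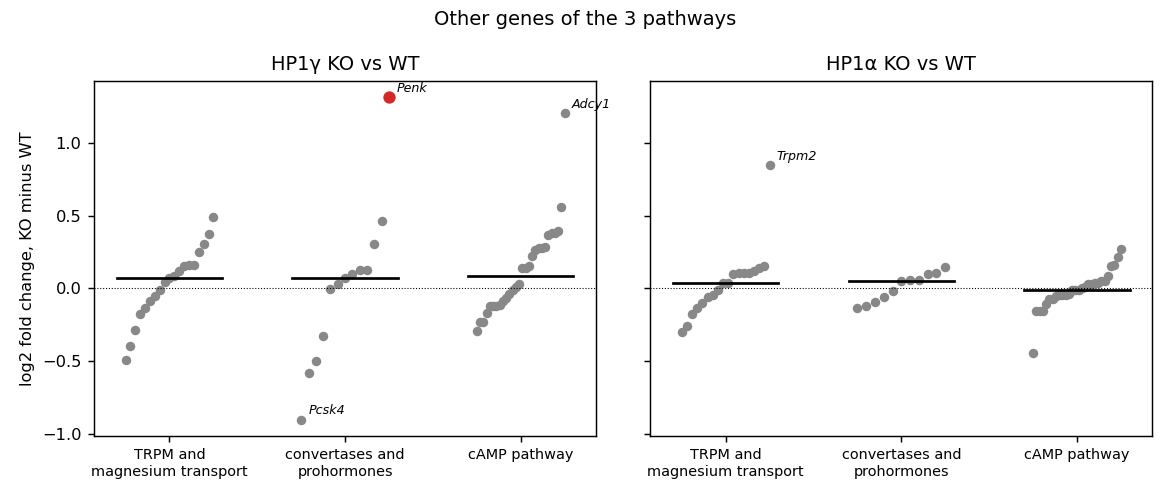
Log2 fold change, KO minus WT, of each tested gene of the 3 lists in the HP1γ line (left) and the HP1α line (right), 1 point per gene, with the median as a bar and genes with an adjusted p under 0.05 in red. The medians lie between -0.0080 and 0.08 and Penk, at 1.32 in the HP1γ line, is the red point.

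Genes around the 4 loci were tested within 500 kb. Of 24 tested neighbours in the HP1γ line, 4 of Trpm6, 5 of Pcsk1, 7 of 2600014E21Rik and 8 of Pde7b, 0 had an adjusted p under 0.05 by edgeR, and 6 had an unadjusted p under 0.05, beside 11.9% of all genes. Erap1, near Pcsk1, had the smallest (log2 fold change -0.22, unadjusted p = 0.00181, adjusted p = 0.174 by edgeR). Map3k5, near Pde7b, had 0.21 (unadjusted p = 0.0219 by edgeR) and D030056L22Rik, near Trpm6, -0.17 (unadjusted p = 0.0354 by edgeR). Near 2600014E21Rik, 3 of 7 had an unadjusted p under 0.05, all lower: the homeobox gene Hoxd1, its neighbour Haglr, an antisense lncRNA of the HoxD cluster, and Rps6-ps4. Hoxd1 had 1.10, 0.433, 0.547 and 0.759 CPM in HP1γ WT and 0.114, 0.102, 0.653 and 0.257 CPM in HP1γ KO (log2 fold change -1.29, adjusted p = 0.400 by edgeR). The groups overlapped through HP1γ KO replicate 3. Haglr had a log2 fold change of -1.02 (adjusted p = 0.417 by edgeR) and Rps6-ps4 of -0.22 (adjusted p = 0.402 by edgeR). Counts of Hoxd1 were 34, 17, 18 and 25 in HP1γ WT and 3, 3, 20 and 10 in HP1γ KO. Those of Haglr were 19, 9, 18 and 36, and 6, 8, 12 and 12. Hoxd1 met the filter on low counts through WT, and Haglr more through WT than through KO. Passing it was thus not free of the difference. The share of all genes lower at an unadjusted p under 0.05 was not counted for this line. Nothing is drawn from these 3 genes. Neither Hoxd1 nor Haglr passed the filter in the HP1α line, at means of 0.0388 and 0.0796 CPM in HP1α WT. The median log2 fold change of the neighbours in the HP1γ line was -0.10 for Trpm6, -0.01 for Pcsk1, -0.15 for 2600014E21Rik and 0.11 for Pde7b.

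**Figure D5:**
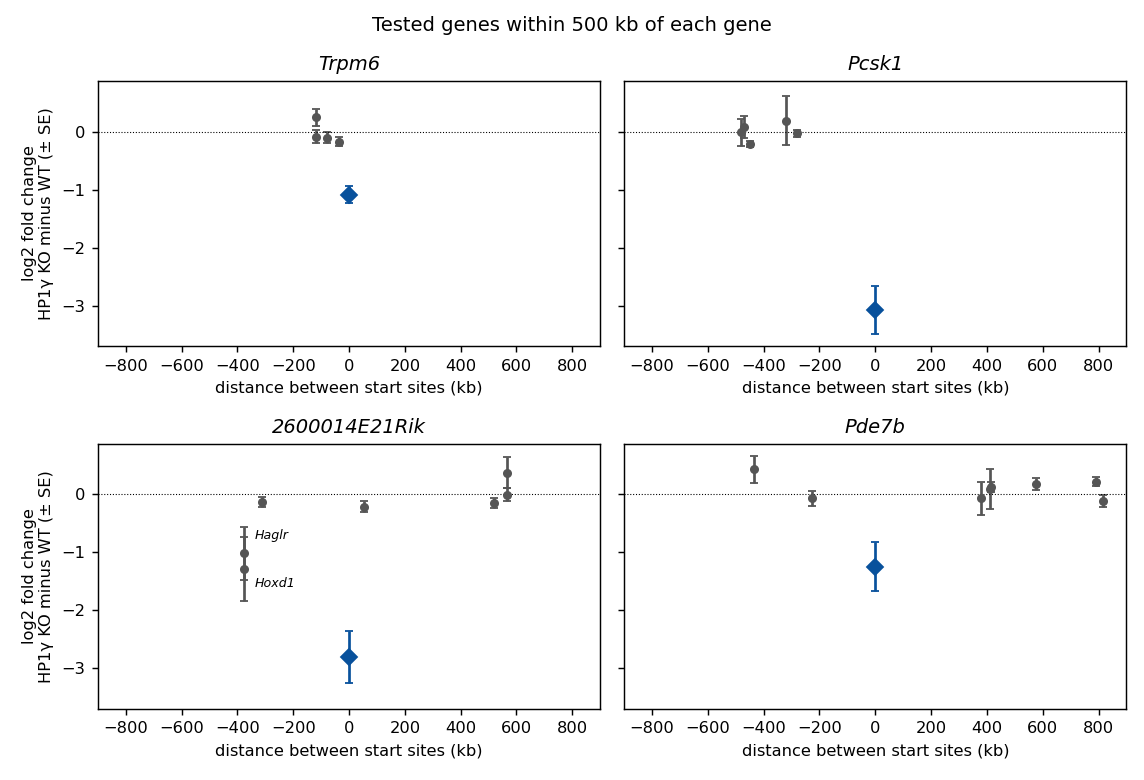
Log2 fold change in HP1γ KO against WT, with its standard error, of the tested genes within 500 kb of each gene (grey) against the distance between start sites in kb, positive downstream, with the gene itself as a blue diamond at 0. Hoxd1 and Haglr, upstream of 2600014E21Rik, are at -1.29 and -1.02, and the other neighbours lie between -0.22 and 0.43.

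The genes whose profile was most like that of each member were sought by Pearson correlation of log2(CPM + 0.1) over the 16 samples, a description whose points share the group differences that chose the genes. Trpm6 was most like Il17rb (r = 0.914, Spearman's rho 0.885), then 2600014E21Rik (r = 0.891) and Pcsk1 (r = 0.888), with Rmdn2 (r = 0.851) also among its 5. Pcsk1 was most like Trpm6, then Nrn1 (r = 0.858), Pgam1 (r = 0.833), Plod2 (r = 0.819) and Psmd1 (r = 0.810), and 2600014E21Rik most like Il17rb (r = 0.902), then Trpm6, Bcap31 (r = 0.858), Epb41l2 (r = 0.842) and the cytokine gene Il4 (r = 0.842). Pde7b had no other member among its 5, which were Micos10 (r = 0.890), Mcm3 (r = 0.881), Mlf1 (r = 0.874), Zfp449 (r = 0.873) and Ccdc25 (r = 0.860). Pde7b thus stood apart from the other 3 genes, with r of 0.266 to Trpm6, 0.291 to Pcsk1 and 0.382 to 2600014E21Rik.

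Within groups the correlations between members were low. Deviations of Pcsk1, 2600014E21Rik and Pde7b rest on few counts (3 to 9, 3 to 7 and 5 to 13 in HP1γ KO). A low r therefore cannot tell separate variation of the genes from counting error. Over deviations from the group means of the 16 samples, r was 0.313 between Trpm6 and Pcsk1, 0.380 between Trpm6 and 2600014E21Rik and -0.152 between Pcsk1 and 2600014E21Rik, and between -0.275 and 0.0958 for the pairs with Pde7b. No member was among the 5 genes most like another on this scale. The closest were Dbp, a clock-controlled transcription factor, for Trpm6 (r = 0.880), the unnamed gene ENSMUSG00000118364 for Pcsk1 (r = 0.846), the proteasome subunit gene Psmc1 for 2600014E21Rik (r = 0.889) and the unnamed gene ENSMUSG00000120289 for Pde7b (r = 0.889).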

How the data were processed

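RNA-Seq was analysed in 16 samples of splenic memory CD4+ T cells, grouped by the titles in the labels. The label for treatment names cell transfers that differ from the study's account, and was not used. After trimming, the authors used STAR for alignment (GRCm39, genes of Ensembl) and Salmon for quantification, and deposited estimated counts per gene without normalization, of which 11.6% are not whole numbers. The authors also deposited TPM, which keep no depth and depend on the transcripts that Salmon assigned reads to. The strand setting of the counting is not given in the sources used here.

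Estimated counts were rounded and each KO was compared with its own WT littermates (8 samples) in R 4.3.3 with edgeR 4.0.16 (TMM, filterByExpr with a minimum count of 10, quasi-likelihood test, Benjamini-Hochberg adjustment). CPM were TMM-normalized over 16 samples. Relative length used CPM before TMM scaling. Exact permutation tests used scipy 1.17.1, and shared sequence was looked up with blastn 2.17.0. Sequences and coordinates come from GRCm39 with a GENCODE annotation, another release than that counted on; promoters are those of Ensembl canonical transcripts. The members and lists were chosen with earlier results of these data known. Genes named are the members, Cbx3 and Cbx5, those of 3 pathway lists and 16 marker lists, tested genes within 500 kb, the 5 most similar genes, and genes called lower or next to a threshold. Alternatives were DESeq2 1.42.0, RLE size factors, no filter, 16 samples in one fit, a replicate block, a robust fit, limma 3.58.1 on log2(TPM + 1) and log2(TPM + 0.1), and leaving out each sample. No source says whether samples came from separate mice, so that p-values measure the spread between these samples; no pair within a group agreed within sampling noise (smallest chi-square per degree of freedom 12.7). Floors and intervals cover counting error or the spread between samples only. All 16 samples were used; the study names an RNA-Seq sample of the HP1γ line that it excluded, and the sources used here do not make clear whether it belongs to these samples. A promoter and a gene among the most similar ones are not reported here.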

Additional observations from a re-analysis of the deposited data

Results flagged for a closer look

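Over 48 groups of 4 samples (the 4 genes in CPM, TPM and relative length), 3 held a sample far from the other 3, where chance gives about 1 in 20. Trpm6 in HP1γ KO replicate 1 had 1.66 TPM against 2.03 to 2.08 in the other 3, while its CPM was not set apart. The relative length of Trpm6 in HP1γ KO replicate 2 was 2.91, against 3.87 to 3.96 in the others. That of Pde7b in HP1α WT replicate 2 was 1.03 against 2.61 to 2.71, on 4 counts. No sample was set apart in CPM for any of the 4 genes.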

How the results depend on the processing

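Counts of genes called in HP1γ KO moved most with the tool: 25 lower and 72 higher by DESeq2, 11 lower without a filter on low counts, 10 lower with 16 samples in one fit, and 1 lower and 9 higher by limma on log2(TPM + 1). With 1 sample left out, 2 to 7 were lower and 21 to 28 higher, with 2 lower without HP1γ KO replicate 1 and 3 without replicate 2. Without HP1γ KO replicate 1, none of the 4 genes kept an adjusted p under 0.05 in edgeR (Trpm6 0.0541, Pcsk1 0.0571, 2600014E21Rik 0.125). Without HP1γ KO replicate 2, Pcsk1 had 0.0526 by edgeR. 2600014E21Rik exceeded 0.05 without 6 of the 8 samples (up to 0.133 by edgeR). On log2(TPM + 1), limma gave Trpm6 an adjusted p of 0.0440, Pcsk1 0.229 and 2600014E21Rik 0.120. In HP1α KO, 1 gene was lower by DESeq2, without a filter, with the robust fit or with the replicate block, 2 by limma with a pseudocount of 1 TPM and 4 with 0.1 TPM, and 1 was higher by DESeq2 and 2 by limma on either scale; with 1 sample left out, 0 to 1 were lower and 0 to 2 higher, with 1 lower and 2 higher without HP1α WT replicate 3 and 1 higher without HP1α WT replicate 4. Pcsk1 in the HP1α line turned to 0.14 with a pseudocount of 1 TPM and 0.34 with 0.1 TPM, where its relative length differs; every other value of the 4 genes kept its direction under the alternatives run. With 1 sample left out of the HP1α line, log2 fold changes ran from -0.64 to -0.44 for Trpm6, -1.71 to -1.23 for Pcsk1 and -1.61 to -1.17 for 2600014E21Rik, and adjusted p from 0.749 to 1.00 by edgeR; Trpm6 reached 0.243 by DESeq2. Samples with the same replicate number correlated at -0.0059 to 0.186 in the HP1γ line and 0.0802 to 0.270 in the HP1α line, so that the numbers were not taken as pairs. Other pairings in the HP1γ line gave -0.338 (KO replicate 3, WT replicate 2) to 0.309 (KO replicate 3, WT replicate 4). Within its groups, replicates 1 and 2, and 3 and 4, were closest (chi-square per degree of freedom 17.5 and 16.7 in WT, 12.7 and 23.4 in KO). No fit used that grouping, and its part was not tested. With the replicate block, Trpm6 had an adjusted p of 0.0499 and 2600014E21Rik of 0.0928 in the HP1γ line by edgeR, with 7 genes lower and 26 higher, and in the HP1α line Trpm6 had 0.276. No marker list passed the adjustment on summed CPM in place of TPM, and 0 neighbours were called within 200 kb, 500 kb or 1 Mb. Where the cause of a move is not named, the cause was not tested. Few counts (1 to 71 per sample for Pcsk1, 2600014E21Rik and Pde7b) limit what can be seen in 3 of the 4 genes.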
